A study of Mus musculus with 10 samples.

Results

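The genes described here are 10 amino acid transporters of T cells, Slc7a5, Slc3a2, Slc1a5, Slc1a4, Slc7a6, Slc7a11, Slc38a1, Slc38a2, Slc38a9 and Slc7a1. They were chosen as probe sets that the platform annotation assigns to exactly 1 of these symbols, which gave 12 probe sets for 10 of the 22180 genes tested. Slc1a5 and Slc7a11 have more than 1 probe set, and the brightest by mean level was taken as the main one of each.

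Levels were measured on 10 one-colour Affymetrix arrays of mouse regulatory T (Treg) cells, the Foxp3-expressing T cells that restrain immune responses. The Fntb KO group has 5 arrays of CD4+ YFP+ cells from Foxp3CreFntbfl/fl chimeras, in which a Cre placed under Foxp3 removes Fntb, the beta subunit of protein farnesyltransferase. The WT group has 5 arrays of cells sorted by the same markers from WT chimeras. Spleen and pLN were the source in both groups, and all mice were chimeras. The labels give neither age nor sex, nor the cells that the hosts kept, nor further alleles of the WT chimeras.

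Amino acid transporters set how much leucine, glutamine, arginine and cystine a T cell can take up, and activated T cells are known to raise several of them. Slc7a5, Slc7a6 and Slc7a11 are light chains that reach the cell surface bound by a disulfide bridge to the heavy chain Slc3a2 (CD98). Slc1a5 and Slc1a4 are sodium-dependent exchangers of neutral amino acids, Slc38a1 and Slc38a2 are sodium-coupled importers of glutamine and other neutral amino acids, and Slc7a1 carries arginine and lysine. Slc38a9 sits on the lysosome, where it reports arginine to the kinase complex mTORC1. The integrated stress response, through the transcription factor ATF4, is a known inducer of several of these genes.

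The arrays of each group are numbered 1 to 5 as names only. Median log2 levels per array lay between 4.09 and 4.25, and within a group the arrays correlated at 0.985 to 0.995 over all genes. Fntb KO 1, Fntb KO 2 and WT 2 had the lowest medians, 4.12 at most, against 4.19 or more on the other arrays. On these 3 arrays the median level of 71 mitochondrial ribosomal protein genes was 7.0 to 7.11, against 6.35 to 6.69 on the others. Fntb was lower on every Fntb KO array (5.47 ± 0.12 in Fntb KO, against 6.12 ± 0.16 in WT, SD, n = 5 each; limma adjusted p = 0.00442). Whether its probe set lies in the deleted part was not examined. The 1105 olfactory receptor genes, which T cells are not known to need, had a 95th percentile of 4.19, used here as a mark of low signal. Folds measured close to this mark may be too small.

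Transcripts of the 10 transporters moved in different directions when Fntb was lost. Slc7a5 and Slc1a4 rose, Slc1a5 fell, and the other 7 did not pass the test. The test was limma over all 22180 genes, calling a gene at an adjusted p (Benjamini-Hochberg) under 0.05, and every adjusted p below comes from that fit unless another is named. The 3 that passed stand beside 1.11% of all genes. By direction, the 2 that rose stand beside 0.302% of all genes and the 1 that fell beside 0.807%. The Fntb KO and WT arrays did not overlap for 4 of the 10 transporters, Slc7a1 being the fourth, against 2.67% of all genes. The median difference of the 10 was 0.09, against 0.01 over all genes. Arrays of whole cell samples cannot tell fewer cells of a type from less RNA per cell.

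**Figure D1:**
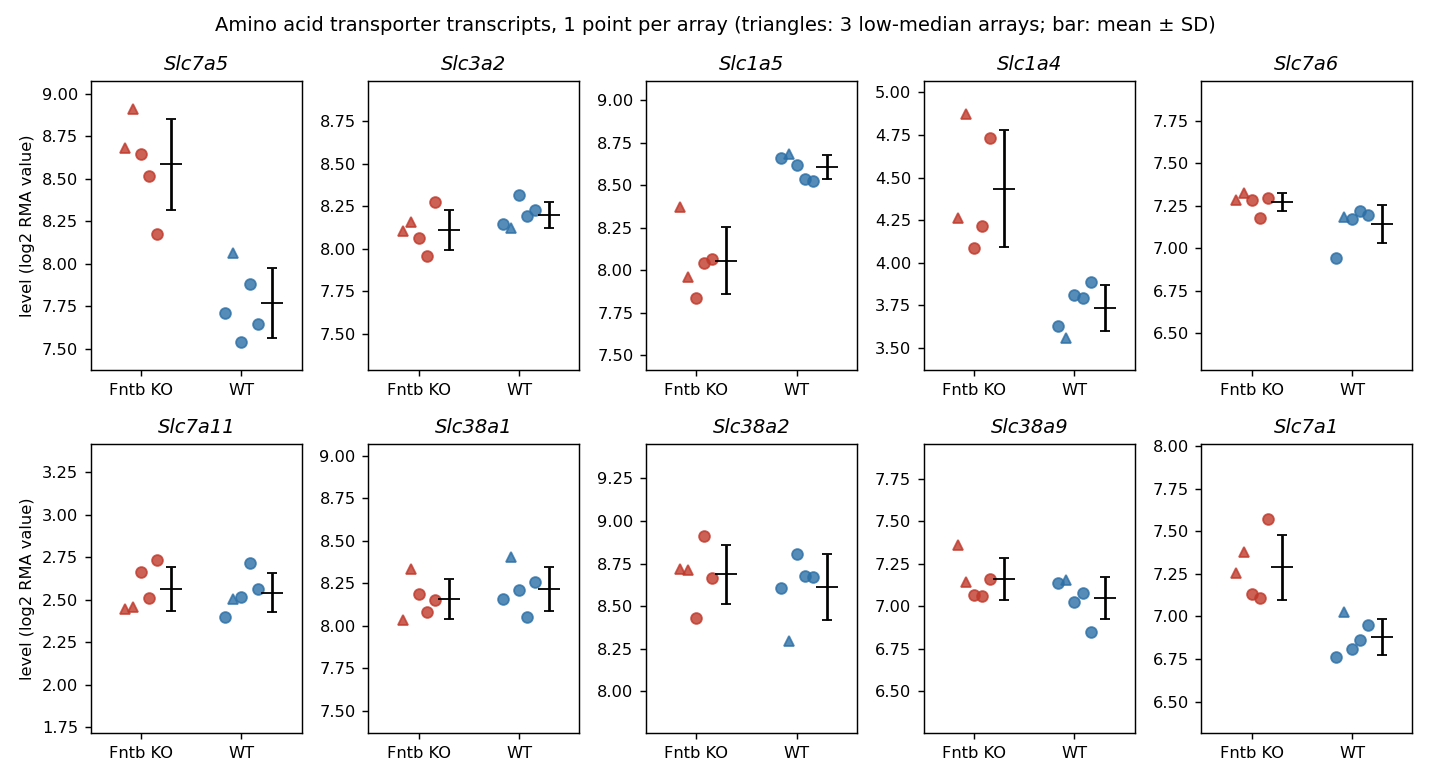
Level of each transporter on each array, as the log2 RMA value, with Fntb KO at the left and WT at the right of each panel. Points are arrays, triangles are the 3 arrays with the lowest medians, black bars are mean ± SD (n = 5), and every panel spans the same log2 range. The groups are apart for Slc7a5, Slc1a4 and Slc7a1, where Fntb KO is above WT, and for Slc1a5, where it is below.

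Slc7a5 is the light chain of the LAT1 transporter, which brings leucine and other large neutral amino acids into the cell in exchange for glutamine. On the 5 Fntb KO arrays its log2 levels were 8.68, 8.91, 8.64, 8.51 and 8.18, and on the 5 WT arrays they were 7.71, 8.06, 7.54, 7.88 and 7.65. Every Fntb KO array lay above every WT array, with 0.12 between the lowest Fntb KO and the highest WT array. The means were 8.59 ± 0.27 in Fntb KO, against 7.77 ± 0.20 in WT (SD, n = 5 each), a log2 difference of 0.82 (SE 0.135, 95% interval 0.53 to 1.11) or 1.76-fold, with an adjusted p of 0.00897. The low-median arrays Fntb KO 2 and WT 2 were the highest of their groups. Without the 3 low-median arrays the difference was 0.75 (adjusted p = 0.0332). Leaving out each array in turn gave differences of 0.74 to 0.92, and the call was kept each time.

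Slc3a2 encodes the CD98 heavy chain that Slc7a5 needs at the cell surface. Its log2 levels were 8.11, 8.16, 8.06, 7.96 and 8.27 on the Fntb KO arrays and 8.14, 8.12, 8.31, 8.19 and 8.22 on the WT arrays. The groups overlapped, and the difference of -0.09 (95% interval -0.27 to 0.09) did not pass (adjusted p = 0.839). To ask whether the light and the heavy chain changed unequally, the log2 level of Slc3a2 was subtracted from that of Slc7a5 on each array. The size of such a within-array value has no meaning across probe sets, but its change between groups has. It was 0.47 ± 0.33 in Fntb KO, against -0.43 ± 0.27 in WT (SD, n = 5 each), a change of 0.90. Over the 252 ways to assign the arrays, a two-sided exact permutation test gave p = 0.0159, or 0.0317 after adjustment over the 6 pairs compared in this way. Fntb KO 5 was the only Fntb KO array within the WT range, at -0.09 against a highest WT value of -0.06.

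Slc7a6, another light chain, forms the y+LAT2 exchanger of cationic and neutral amino acids. Its log2 levels were 7.28, 7.32, 7.29, 7.18 and 7.29 on the Fntb KO arrays and 6.94, 7.19, 7.17, 7.22 and 7.20 on the WT arrays. Fntb KO 4 alone fell within the WT range, and the difference of 0.13 (95% interval -0.04 to 0.30) did not pass (adjusted p = 0.693). Slc7a5 changed more than Slc7a6. Their within-array difference was 1.31 ± 0.26 in Fntb KO, against 0.63 ± 0.21 in WT (SD, n = 5 each), a change of 0.69 with no overlap between the groups (exact permutation p = 0.00794, the smallest that 5 against 5 arrays allow, and 0.0238 over the 6 pairs). Slc7a6 against Slc3a2 also shifted, by 0.22, with values of -0.84 ± 0.08 in Fntb KO, against -1.06 ± 0.11 in WT (SD, n = 5 each; exact permutation p = 0.0238, 0.0357 over the 6 pairs). That shift no longer passed when Fntb KO 1, 2, 3 or 4 was left out, each time at an adjusted exact permutation p of 0.0595.

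Slc7a11, the light chain of the cystine and glutamate exchanger xCT, was at the level of olfactory receptor genes in both groups. Its main probe set ran from 2.45 to 2.73 on the Fntb KO arrays and from 2.40 to 2.72 on the WT arrays. The other probe set ran from 2.15 to 2.58 in Fntb KO and from 2.22 to 2.52 in WT. Both probe sets stayed below 4.19 on all 10 arrays, so little follows from their differences of 0.02 and 0.01. The within-array value of Slc7a11 minus Slc3a2 differed by 0.11 between the groups, which did not pass (exact permutation p = 0.222, 0.267 over the 6 pairs). With Slc7a11 below 4.19 on every array, this pair cannot show whether the light and the heavy chain changed unequally.

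Slc1a5 (ASCT2) exchanges glutamine and other neutral amino acids across the plasma membrane. Its main probe set read 8.37, 7.96, 7.84, 8.04 and 8.07 on the Fntb KO arrays and 8.66, 8.69, 8.62, 8.54 and 8.53 on the WT arrays. All Fntb KO arrays lay below all WT arrays, Fntb KO 1 being the closest to them at a distance of 0.16. The means were 8.06 ± 0.20 in Fntb KO, against 8.61 ± 0.07 in WT (SD, n = 5 each), a difference of -0.55 (SE 0.0989, 95% interval -0.76 to -0.34) or 1.46-fold, with an adjusted p of 0.0162. The other probe set of the gene read 7.62, 7.62, 7.91, 7.72 and 7.92 on the Fntb KO arrays and 8.05, 8.61, 8.45, 8.43 and 8.81 on the WT arrays, again without overlap. Its difference was -0.71, with an adjusted p of 0.0179 in a limma fit over all 23521 probe sets, of which 1.08% passed. With WT 3 left out the main probe set no longer passed (difference -0.55, adjusted p = 0.0521). It passed when the 3 low-median arrays were left out (-0.60, adjusted p = 0.0259).

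Slc1a4 (ASCT1), the relative of Slc1a5 that exchanges alanine, serine and cysteine, went the other way. Its log2 levels were 4.26, 4.88, 4.09, 4.22 and 4.73 on the Fntb KO arrays and 3.63, 3.56, 3.81, 3.79 and 3.89 on the WT arrays. All Fntb KO arrays were above all WT arrays, and Fntb KO 2 and Fntb KO 5 were the highest. All 5 WT arrays lay below the olfactory receptor mark of 4.19, and 4 of the 5 Fntb KO arrays lay above it. The means were 4.44 ± 0.35 in Fntb KO, against 3.73 ± 0.14 in WT (SD, n = 5 each), a difference of 0.70 (SE 0.145, 95% interval 0.39 to 1.01) or 1.63-fold, with an adjusted p of 0.0328. Leaving out single arrays ended the call in 7 of 10 fits (those without Fntb KO 2, Fntb KO 5 and each WT array, adjusted p 0.0534 to 0.0899, differences of 0.59 to 0.74). Without the 3 low-median arrays it was lost too (0.57, adjusted p = 0.150).

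The change of Slc1a5 relative to Slc1a4 was tested in the same way as the pairs above. Slc1a5 minus Slc1a4 on the same array was 3.62 ± 0.41 in Fntb KO, against 4.87 ± 0.20 in WT (SD, n = 5 each), a change of -1.25 without overlap (exact permutation p = 0.00794, 0.0238 over the 6 pairs). Each gene alone already separated the groups, in opposite directions. The lack of overlap and the unadjusted p of this pair were therefore fixed beforehand and add nothing to the single genes. With the other Slc1a5 probe set, which also separated the groups alone, the change was -1.42.

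The promoter windows of Slc1a4 and Slc7a11 are shown because they were the only ones, among the members with a window, to hold a match to a response element that ATF4 is known to bind. RefSeq promoters (GRCm38.p6, 250 bases before to 50 after a gene's start) were found for 7 of the 10 genes, as 9 windows. Slc7a5, Slc1a5 and Slc38a1 had no entry. The core letters of the C/EBP-ATF response element, TGATGNAA, were searched on both strands and occurred in 3.97% of all 32851 windows. Capitals mark each match. The Slc1a4 window is chr11:20332664-20332963, minus strand, and its match is on the opposite strand, with its first printed base at position -4, where 0 is the base that follows the 250 upstream bases. The Slc7a11 window is chr3:50443564-50443863, minus strand, with a match at -66 on the gene's strand and another at -47 on the opposite strand.
Slc1a4: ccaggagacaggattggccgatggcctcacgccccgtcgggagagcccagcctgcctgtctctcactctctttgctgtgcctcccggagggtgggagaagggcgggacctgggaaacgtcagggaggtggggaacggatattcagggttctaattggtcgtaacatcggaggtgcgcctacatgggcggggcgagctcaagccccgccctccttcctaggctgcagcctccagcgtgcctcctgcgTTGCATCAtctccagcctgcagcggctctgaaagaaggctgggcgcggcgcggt
Slc7a11: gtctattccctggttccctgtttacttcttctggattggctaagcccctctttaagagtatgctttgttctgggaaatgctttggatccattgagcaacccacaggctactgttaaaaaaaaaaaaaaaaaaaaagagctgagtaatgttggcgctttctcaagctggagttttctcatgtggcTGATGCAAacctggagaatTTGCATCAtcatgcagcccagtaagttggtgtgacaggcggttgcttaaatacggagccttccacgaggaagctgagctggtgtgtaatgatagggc
Both windows hold the core letters, and Slc1a4 rose while Slc7a11 stayed at the level of olfactory receptor genes. The E-box CACGTG, which MYC and MAX are known to bind (7.15% of all windows), and the cyclic AMP response element TGACGTCA (1.79% of all windows) had 0 matches in the 9 windows. A match is only a run of letters, and no binding was measured.

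Slc7a1 (CAT1), the main importer of arginine in many cells, separated the groups but did not pass over all genes. Its log2 levels were 7.26, 7.38, 7.13, 7.11 and 7.57 on the Fntb KO arrays and 6.76, 7.03, 6.81, 6.86 and 6.95 on the WT arrays. Every Fntb KO array lay above every WT array, by 0.08 at the closest. The means were 7.29 ± 0.19 in Fntb KO, against 6.88 ± 0.11 in WT (SD, n = 5 each), a difference of 0.41 (95% interval 0.19 to 0.63) with an adjusted p of 0.0893. Over the alternatives with all 10 arrays, and without arrays, its adjusted p stayed between 0.0606 and 0.245.

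The system A importers Slc38a1 and Slc38a2 and the lysosomal Slc38a9 did not pass. Slc38a1 read 8.04, 8.34, 8.19, 8.08 and 8.15 on the Fntb KO arrays and 8.16, 8.41, 8.21, 8.05 and 8.26 on the WT arrays, a difference of -0.06 (95% interval -0.25 to 0.14). Slc38a2 read 8.72, 8.71, 8.43, 8.91 and 8.66 on the Fntb KO arrays and 8.61, 8.29, 8.81, 8.68 and 8.67 on the WT arrays, a difference of 0.08 (95% interval -0.17 to 0.32). In both genes the groups overlapped over most of their range. Their within-array difference changed by -0.13 (exact permutation p = 0.476, also over the 6 pairs). Slc38a9 read 7.36, 7.14, 7.07, 7.06 and 7.16 on the Fntb KO arrays and 7.14, 7.15, 7.03, 7.08 and 6.85 on the WT arrays, a difference of 0.11 (95% interval -0.08 to 0.31). The groups overlapped for these 3 genes and for Slc3a2, Slc7a6 and Slc7a11. Apart from Slc7a11, whose low signal bounds nothing, their intervals lay within -0.27 and 0.32, which leaves out differences the size of that of Slc7a5.

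**Figure D2:**
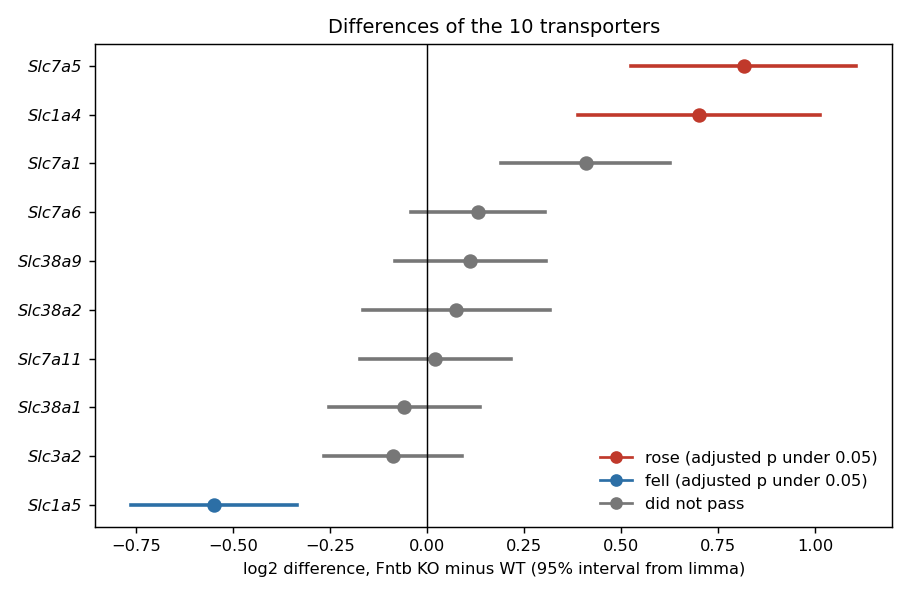
Log2 difference of each transporter, Fntb KO minus WT, as points with the 95% interval from the limma fit over all genes. Slc7a5 (0.82) and Slc1a4 (0.70) rose and Slc1a5 (-0.55) fell. Slc7a1 (0.41) has an interval above 0 but did not pass after adjustment over all genes.

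**Figure D3:**
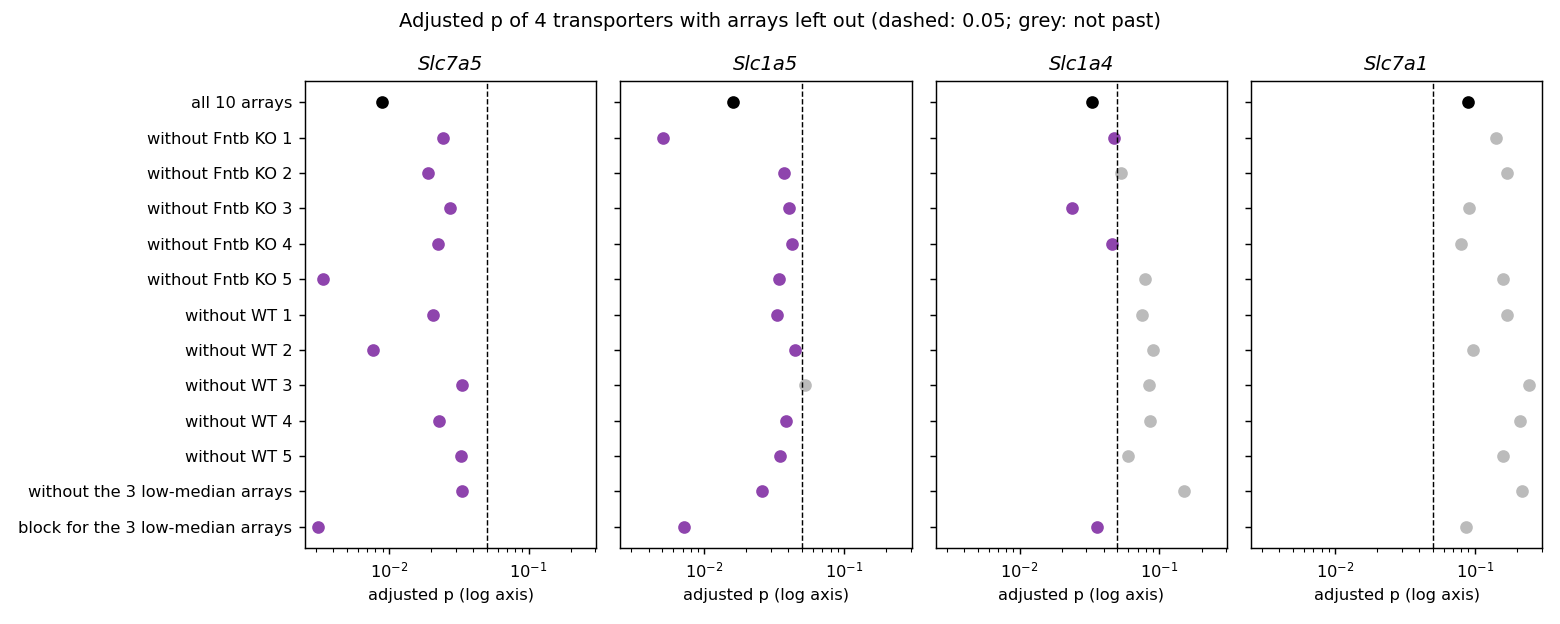
Adjusted p (log axis) of Slc7a5, Slc1a5, Slc1a4 and Slc7a1 with all 10 arrays, without each array in turn, and with the 3 low-median arrays left out or set as a block. Points left of the dashed line at 0.05 pass. Slc7a5 passes throughout, Slc1a5 fails only without WT 3 (0.0521), Slc1a4 fails in 8 of these fits, and Slc7a1 passes in none of those shown.

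The genes with the most similar profiles were found by the root mean square difference from each transporter that passed, over the 10 arrays and after centring each gene on its own mean. The search took in 10059 genes of known name at or above the median level. Nearest to Slc1a4 were Cars, the cysteinyl-tRNA synthetase (0.218), the arginine transporter Slc7a1 (0.231) and the NAD synthesis enzyme Nmnat3 (0.234). Cars read 7.30, 7.25, 7.20, 7.14 and 7.43 on the Fntb KO arrays and 6.26, 6.61, 6.68, 6.44 and 6.71 on the WT arrays. It rose 1.65-fold (log2 difference 0.72, adjusted p = 0.00280). Cars, Slc7a1 and Slc1a4 each had every Fntb KO array above every WT array. Nmnat3 differed by 0.47 (adjusted p = 0.226).

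Nearest to Slc7a5 were the F-box gene Fbxo27 (root mean square difference 0.122), the monocarboxylate transporter family member Slc16a5 (0.149) and the immunoglobulin superfamily gene Igsf23 (0.158). All 3 rose, by log2 differences of 0.89 (adjusted p = 0.00940), 0.79 (0.00702) and 0.87 (0.0204). The 5 WT arrays of Fbxo27 read 3.63 to 4.07, below the mark of 4.19, so its mean reached the level needed for the search only through the Fntb KO arrays. Igsf23 lost its call without WT 3, WT 4 and WT 5 in turn (adjusted p 0.0645, 0.0630 and 0.0586), and Fbxo27 and Igsf23 lost theirs without the 3 low-median arrays (0.0630 and 0.0765). Nearest to Slc1a5 were the Hippo pathway kinase Lats2 (0.0979), the replication ligase Lig1 (0.114) and the lymphocyte adaptor Lax1 (0.129). Lats2 fell by 0.48 on the log2 scale (adjusted p = 0.00937, but 0.0547 without the 3 low-median arrays). Lig1 differed by -0.45 (adjusted p = 0.0550) and Lax1 by -0.40 (0.151). Lig1 passed under another quantile normalization (adjusted p = 0.0225), a filter on dim genes (0.0427), array weights (0.0371), a block for the 3 low-median arrays (0.0114) and without Fntb KO 1 (0.0222). The likeness was set by the search itself and is given as a description.

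**Figure D4:**
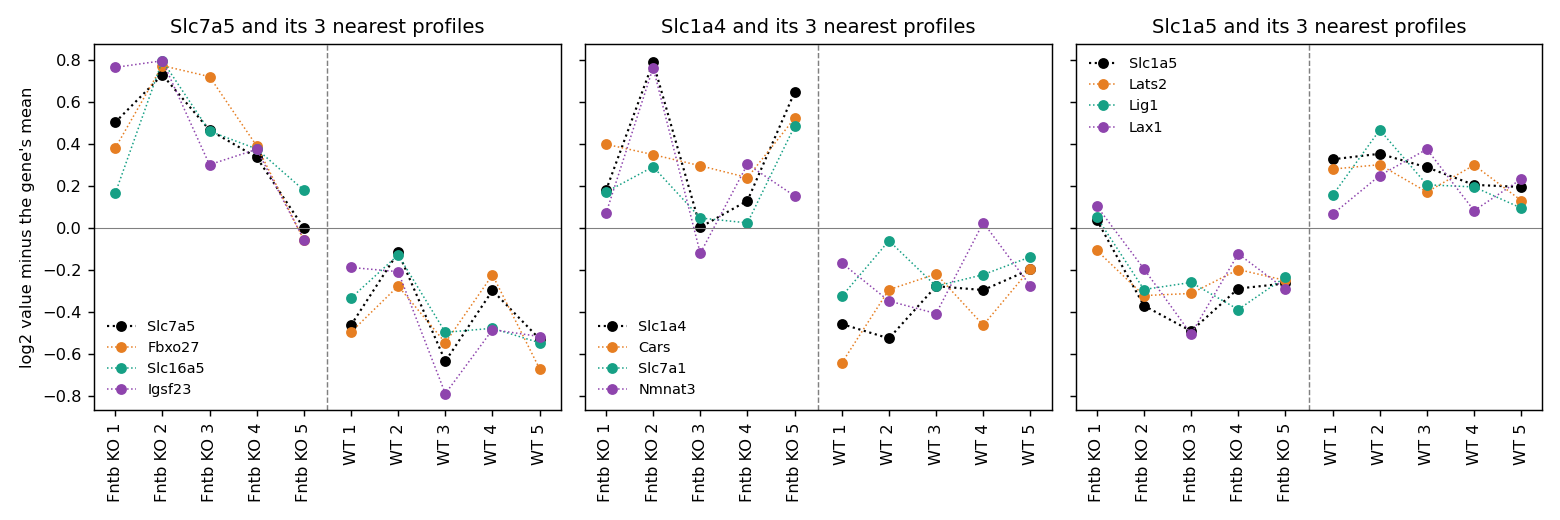
Log2 value minus the gene's mean on each of the 10 arrays, for Slc7a5, Slc1a4 and Slc1a5 (black) and the 3 genes with the smallest root mean square difference from each (colours). Fntb KO arrays are left of the dashed line and WT arrays right of it, and the dotted lines only join points of the same gene. Slc1a4, Cars and Slc7a1 all sit above their mean on every Fntb KO array and below it on every WT array.

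Other amino acid transporters were set beside the 10 as lists. Of 38 other plasma membrane transporters tested, 0 rose and 0 fell by limma, with 2 at an unadjusted p under 0.05 and a median difference of -0.02. The largest differences among them were in the heavy chain Slc3a1 (-0.40) and the aromatic amino acid transporter Slc16a10 (-0.32). Of 8 lysosomal transporters 0 passed by limma (1 at an unadjusted p under 0.05), with the peptide transporter Slc15a3 at -0.32 and the cysteine importer Mfsd12 at -0.15. Of 11 mitochondrial carriers 0 passed by limma (2 at an unadjusted p under 0.05), with the branched chain amino acid carrier Slc25a44 at -0.36 and Sfxn2 at 0.24. Over all genes, 9.26% had an unadjusted p under 0.05. Of 10 other nutrient transporters of T cells 0 passed by limma (1 at an unadjusted p under 0.05), among them the zinc transporter Slc39a10 (-0.24) and the lactate transporter Slc16a1 (0.22).

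Of 41 tested enzymes of amino acid, polyamine or glutathione metabolism, 0 rose and 1 fell (2.44%, beside 0.807% of all genes). With 1 gene this says nothing about the enzymes as a group. The gene that fell was Gsr, which regenerates reduced glutathione and fell 1.86-fold, with levels of 5.04, 5.61, 5.40, 5.26 and 4.90 on the Fntb KO arrays and 6.03, 6.33, 6.13, 5.96 and 6.23 on the WT arrays (log2 difference -0.90, adjusted p = 0.00354). Its groups did not overlap, and it kept its call without each array in turn. It belongs to the 16 genes tested for serine, cysteine and glutathione, of which 0 rose and whose median difference was 0.02. Of 12 tested enzymes of glutamine, glutamate and aspartate 0 passed by limma (1 at an unadjusted p under 0.05), with the aspartate aminotransferase Got2 at -0.32 and the alanine aminotransferase Gpt2 at 0.24. Of 13 tested enzymes of branched chain amino acids and arginine 0 passed, also at an unadjusted p under 0.05, with Dbt of the branched chain ketoacid dehydrogenase at 0.24 and the polyamine enzyme Odc1 at -0.21.

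The next 72 tested genes belong to the integrated stress response, the MYC network, amino acid sensing with mTORC1, or transporter trafficking. Of them 2 rose and 1 fell, beside 0.302% of all genes that rose and 0.807% that fell. Of 18 tested genes of the integrated stress response, 2 rose and 0 fell. The list's differences ran from -0.35 to 0.59, with a median of -0.00343. Of these 18, 6 had an unadjusted limma p under 0.05 in either direction, beside 9.26% of all genes. The kinase Eif2ak2 (PKR), which responds to double-stranded RNA and is itself induced by interferon, rose 1.51-fold (adjusted p = 0.0301). The transcription factor Ddit3 (CHOP) rose 1.50-fold (adjusted p = 0.0490). For Ddit3 the groups overlapped, with Fntb KO 1 at 8.11 below WT 2 at 8.18. When single arrays were left out, Ddit3 failed in 9 of 10 fits, at differences of 0.51 to 0.63, and passed only without Fntb KO 1 (0.70). Removing Fntb KO 1, Fntb KO 2 and WT 2 together raised the Ddit3 difference to 0.80, and its call held (0.00905 after adjustment). A block for these 3 arrays kept the call too (0.62, adjusted p = 0.0270), whereas the limma fit over every probe set did not (adjusted p = 0.0505). Eif2ak2 lost its call without Fntb KO 2, Fntb KO 4, WT 3, WT 4 and WT 5 in turn, at differences of 0.54 to 0.61, and without the 3 low-median arrays (0.51, adjusted p = 0.0894). Of 10 genes of the MYC network 0 passed by limma (1 at an unadjusted p under 0.05), and Myc, a known driver of transporter expression in activated T cells, differed by 0.22 (adjusted p = 0.399) and its antagonist Mxi1 by 0.18. Of 34 tested genes of amino acid sensing at the lysosome and of mTORC1, 0 passed by limma (2 at an unadjusted p under 0.05), with Rragc at -0.27 and Itfg2 at 0.25. Of 10 genes for trafficking and degradation of transporters 1 fell and 0 rose. It was Cd44, the adhesion receptor known to stabilise xCT, which fell 1.61-fold (adjusted p = 0.0059, but 0.0632 without the 3 low-median arrays at a difference of -0.64).

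**Figure D5:**
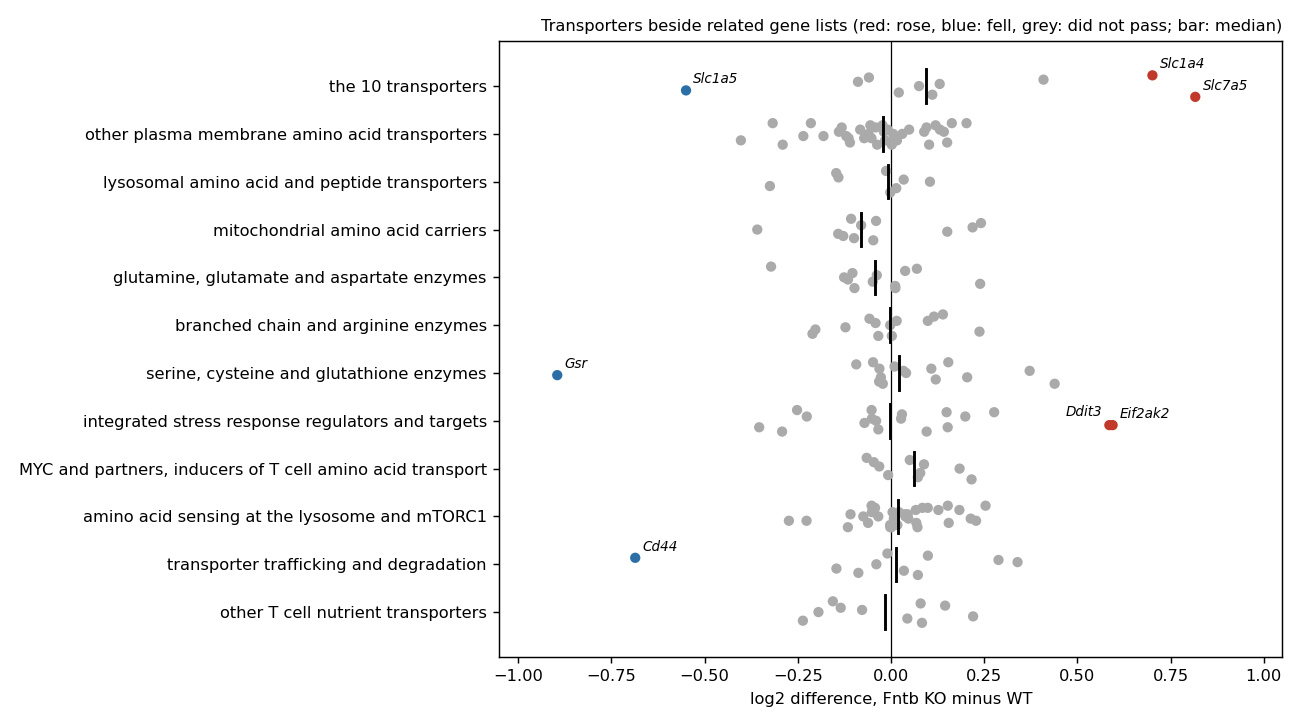
Log2 difference, Fntb KO minus WT, of the 10 transporters and of the tested genes of 11 related lists, 1 point per gene. Red points rose, blue points fell, grey points did not pass, and black bars are medians. The genes that passed in the related lists are Eif2ak2 and Ddit3, which rose, and Gsr and Cd44, which fell.

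Markers of Treg cells and of other cells were set beside these results, as 11 lists with 54 tested genes. Of these 0 rose and 2 fell, beside 0.302% and 0.807% of all genes. The T cell, B cell, monocyte or macrophage, dendritic cell, erythroid, platelet and stromal or endothelial lists had 0 genes past the test. At an unadjusted limma p under 0.05 were 2 of 5 B cell, 2 of 4 platelet and 1 of 5 stromal or endothelial markers. The 6 Treg markers were all above 4.19, and 0 passed by limma, with 2 at an unadjusted p under 0.05 (Ctla4 at -0.39 and Ikzf2 at -0.41). Il2ra differed by 0.05, Ikzf4 by -0.01 and Tnfrsf18 by -0.23. The summed linear signal of the 6 was 4988 to 5527 on the Fntb KO arrays and 5581 to 6139 on the WT arrays. It was thus lower on every Fntb KO array, though not every marker was lower. Foxp3 was 10.53 ± 0.05 in Fntb KO, against 10.67 ± 0.03 in WT (SD, n = 5 each; adjusted p = 0.601). The difference of -0.14 was small, but all Fntb KO arrays (10.624 at most) lay below all WT arrays (10.635 at least). An exact permutation test of Foxp3 alone gave an unadjusted p of 0.00794. The plasma cell list had a summed signal of 119 to 127 in Fntb KO and 153 to 221 in WT. By their mean over all 10 arrays, Jchain, Mzb1 and Sdc1 were at or below 4.19, though Mzb1 was above it on some arrays. In that list Irf4, a transcription factor of plasma and effector T cells and the brightest gene of the list, fell (-0.95). Derl3 was at 0.28 and Sdc1 at 0.17 without passing. In the list of CD8 T or NK cells Nkg7, a granule gene of cytotoxic cells, fell (-0.79). The other 5 markers did not pass, at 0.07 for Klrb1c, 0.11 for Cd8a, 0.12 for Ncr1, 0.20 for Prf1 and 0.27 for Cd8b1. By their mean over all 10 arrays, Klrb1c, Cd8a and Ncr1 were at or below 4.19, so little follows from their differences. The neutrophil list had a summed signal of 63.7 to 193 in Fntb KO and 66.3 to 83.3 in WT, with 3 of its 5 markers (Ly6g, Csf3r and Mpo) at or below 4.19. In this list 0 genes rose and 0 fell by limma, with 1 at an unadjusted p under 0.05. S100a8 read 5.27, 3.59, 6.25, 4.74 and 4.15 on the Fntb KO arrays and 3.34, 3.98, 3.79, 3.93 and 3.73 on the WT arrays (adjusted p = 0.321). S100a9 read 5.73, 4.37, 6.35, 5.02 and 4.62 on the Fntb KO arrays. On the WT arrays S100a9 read 4.55, 4.70, 4.36, 4.17 and 5.01 (limma adjusted p = 0.546). The part of these markers in the transporter results was not tested.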

How the data were processed

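Per the labels' protocols, NuGEN kits served for amplifying the RNA of sorted cells and for its biotin label. The authors deposited log2 values made by RMA (background correction, quantile normalization and summary per probe set) in Affymetrix Expression Console 1.1, per the submitters' processing notes. The 2 deposited tables held identical log2 values.

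Of 41345 probe sets, 23521 had 1 gene symbol in GEO's platform annotation, 1820 had several and 16004 were unnamed here. Symbols were checked through Entrez identifiers against RefSeq (GRCm38.p6, 23328 matched, 0 changed). The probe set with the highest mean was kept per gene, giving 22180 genes without a filter on dim genes. Both groups entered 1 fit without covariates (lmFit and eBayes of limma 3.58.1 in R 4.3.3). The fit was tested on simulated data. Differences are Fntb KO minus WT. Errors are SD over arrays or the standard error of the difference. Pairs of transporters, and Foxp3, were compared between the groups by exact two-sided permutation tests (Python 3.11.15).

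The members, lists and tests were chosen with earlier results of these data known. Named genes are the 10 transporters, Fntb and Foxp3, the 3 nearest profiles of each transporter that passed, and from each list up to 6 members that passed, or the 2 with the largest difference if none did. Marker genes of other cells and the Treg markers except Foxp3 were named after their values were seen. Proteins of the members were not compared. Nothing in the labels ties each array to its own animal, and a p-value then covers only the spread of these samples, possibly technical. The number of arrays limits the precision. Alternatives were another quantile normalization, a filter on dim genes, array weights, a robust eBayes with trend, the mean of probe sets, every probe set, the authors' own table, a block for the 3 low-median arrays, and fits without them or without each array.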

Additional observations from a re-analysis of the deposited data

Results flagged for a closer look

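In 9 of the 98 groups of 5 arrays examined, 1 array stood far from the other 4, with a gap to its nearest neighbour above 0.71 of the group's range. Chance alone flags about 1 in 20 groups. Slc7a6 had such an array in both groups: Fntb KO 4 was lowest at 7.18 against 7.28 to 7.32 on the other Fntb KO arrays (gap share 0.714), and WT 1 was lowest at 6.94 against 7.17 to 7.22 on the other WT arrays (0.826). Fntb KO 5 was lowest for Slc7a5 minus Slc3a2, at -0.09 against 0.56 to 0.75 (0.770), and for Slc7a6 minus Slc3a2, at -0.98 against -0.83 to -0.78 (0.730). WT 2 was highest for Slc38a1 minus Slc38a2, at 0.11 against -0.62 to -0.41 (0.716). Flags of pairs and of single transporters are not independent, because they share arrays and genes. The rate of 1 in 20 is therefore only a rough guide.

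Among the other named genes, Eif2ak2 was highest on Fntb KO 1 at 6.21 against 5.64 to 5.79 (0.742), and Dbt was highest on Fntb KO 2 at 7.05 against 6.54 to 6.69 (0.714). WT 3 was lowest for Slc25a44 at 5.67 against 6.01 to 6.14 (0.725) and for Mxi1 at 9.03 against 9.26 to 9.34 (0.725).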

How the results depend on the processing

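Slc7a5 kept its direction and its call without each array, without the 3 low-median arrays or with a block for them, and under the other quantile normalization, the filter on dim genes, array weights and the robust eBayes (adjusted p 0.00204 to 0.0332). Slc1a5 did so in all of these but the fit without WT 3. The authors' own table is identical to the values used, and the handling of probe sets cannot move the difference of a gene with 1 probe set, so these alternatives say nothing about Slc7a5. Without each array in turn, Slc1a5 ran from -0.63 to -0.50, Slc1a4 from 0.59 to 0.79, Slc7a11 from -0.022 to 0.065, Slc38a2 from -0.0041 to 0.14, Slc16a1 from -0.086 to 0.40, and Slc7a6 minus Slc3a2 from 0.18 to 0.25. The number of the 10 transporters that passed ran from 1 (without WT 3) to 3, with 32 to 61 genes higher and 95 to 192 lower over all genes, against 67 and 179 with all arrays. A block for the 3 low-median arrays gave 275 lower genes. Without those arrays 41 were higher and 109 lower, Slc1a4 was at 0.57 and did not pass, and Slc38a2 was at -0.023. The pairs then did not pass either, at 0.87 for Slc7a5 minus Slc3a2, 0.63 for Slc7a5 minus Slc7a6, 0.24 for Slc7a6 minus Slc3a2 and -1.17 for Slc1a5 minus Slc1a4, where 3 against 4 arrays allow no exact permutation p below 0.0286 before adjustment. Apart from the fewer arrays and genes of these fits, the cause was not tested. The filter on dim genes left out Slc1a4 and Slc7a11. No paired analysis was possible because the labels carry no replicate numbers. Signal near the olfactory receptor level limits Slc1a4 and Slc7a11.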

Other observations

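The measured genes on either side of each transporter that passed, in RefSeq order, were looked up after the values were known. Beside Slc7a5 lie Klhdc4, which differed by -0.01 (adjusted p = 0.994), and BC048644, which differed by 0.54 (adjusted p = 0.443) at a level below 4.19 in both groups. Beside Slc1a5 lie Ap2s1 (-0.27, adjusted p = 0.808) and Strn4 (-0.13, 0.779). Beside Slc1a4 lie Cep68 (-0.03, 0.971) and Sertad2 (-0.06, 0.882). None of these 6 neighbours passed in the limma fit over all genes.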
